A study of Mus musculus with 16 samples.

Results

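The genes described here encode the subunits of the proteasome. They were taken as every row of the deposited count table whose gene name is Psma, Psmb, Psmc or Psmd followed by a number, with at least 100 reads summed over the 16 libraries. The name matched 39 of 33730 genes in the table, and 38 of them passed the minimum. The 38 genes are 15 constitutive core subunits (8 alpha and 7 beta), 3 immunoproteasome subunits (Psmb8, Psmb9 and Psmb10) and 20 genes of the cap. The cap genes are 6 ATPases (Psmc), 11 non-ATPases (Psmd) and 3 chaperones that help to assemble the cap (Psmd5, Psmd9 and Psmd10). Just outside the minimum lay Psmb11, a beta subunit known from the thymus, with 16 reads in all. Just inside it lay Psma8, an alpha subunit known from the testis, with 254 reads.

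RNA was sequenced from the liver of C57BL/6 mice in 4 groups of 4 libraries, and the series design gives 4 animals a group. KO CDDO-Me livers came from Nrf2 null mice given CDDO-Me (bardoxolone methyl, a triterpenoid activator of the transcription factor NRF2) at 3 mg/kg, in DMSO, into the peritoneum, 24 h and 1 h before part of the liver was cut out. KO untreated livers came from Nrf2 null mice given nothing, not even the solvent. WT CDDO-Me livers came from wild-type mice given the same doses of CDDO-Me, and WT DMSO livers from wild-type mice given the solvent DMSO alone, at 1 µL per g of body weight. In all groups the tissue is the piece removed at the operation itself (day 0). Which part of Nfe2l2, the gene for NRF2, is deleted is not in the labels, nor are the age of the mice or any batch. In the null mice, and between untreated null and DMSO-treated wild-type mice, the solvent and the comparison cannot be told apart.

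The proteasome is the protease that degrades proteins tagged with ubiquitin. Its core is a barrel of alpha and beta rings in which Psmb5 (chymotrypsin-like), Psmb6 (caspase-like) and Psmb7 (trypsin-like) cut the peptide chain. Interferon induces Psmb8, Psmb9 and Psmb10, which replace Psmb5, Psmb6 and Psmb7 in newly built cores and favour peptides for antigen presentation. The cap binds the ubiquitin tag, removes it, unfolds the substrate with its ATPases and feeds it into the core. Both NRF1 (Nfe2l1), when the proteasome is inhibited, and NRF2, under oxidative or electrophilic stress, are known to act on subunit genes through antioxidant response elements.

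The libraries held 12002317 to 99284626 reads counted in genes, WT CDDO-Me 1 having the most. Between 0.673% and 0.967% of reads fell in genes annotated as sense-intronic or TEC (an unverified type, often intronic) in KO untreated 1 and 2 and WT DMSO 1 and 2, against 0.186% to 0.407% in the other 12 libraries. These 4 libraries are called intron-rich below. Ribosomal RNA genes held 0.173% to 0.634% of reads in WT CDDO-Me 2 to 4 and WT DMSO 1 to 3, against 0.00108% to 0.0368% in the other 10 libraries. Nqo1, a classic NRF2 target, had 0.766 to 1.98 CPM (reads scaled to the size of the library) in KO CDDO-Me, 0.434 to 1.19 in KO untreated, 30.8 to 45.9 in WT CDDO-Me and 3.21 to 4.22 in WT DMSO livers. The summed CPM of 6 hepatocyte markers was 67560 to 90330, 45860 to 114600, 54050 to 70320 and 44790 to 85530 in the same order of groups.

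Short stretches upstream of the RefSeq starts are shown because the comparisons turn on NRF2 and on the interferon-induced subunits. RefSeq windows (build GRCm38.p6) from 250 bases before to 50 bases after the start were found for 31 of the member genes. The core of the antioxidant response element, TGACNNNGC, was searched on both strands, and 5 of the 31 genes had it in the window, against 14% of 27025 genes with a window. The interferon gamma activated site, TTCNNNGAA (which reads the same on both strands), was in the windows of Psmb8 and Psmd2, against 9.55% of genes. A match is a run of letters in this window and no evidence of binding. Each line gives the gene strand 5′ to 3′, with the motif in capitals. In Psmc6 and Psmd12 the motif lies on the opposite strand.
Psmb5 (chr14:54618024-54618052, minus strand): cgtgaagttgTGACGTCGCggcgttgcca
Psmb6 (chr11:70525338-70525366, plus strand): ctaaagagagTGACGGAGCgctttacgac
Psmc6 (chr14:45329587-45329615, plus strand): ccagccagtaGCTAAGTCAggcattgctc
Psmd9 (chr5:123228149-123228177, plus strand): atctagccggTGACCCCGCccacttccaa
Psmd12 (chr11:107479278-107479299, plus strand): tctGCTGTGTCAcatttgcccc
Psmb8 (chr17:34198088-34198116, plus strand): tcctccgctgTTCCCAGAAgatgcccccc

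The motif in Psmb5 begins 47 bases before the RefSeq start, that in Psmb6 9 bases before it, and that in Psmb8 97 bases before it. The RefSeq starts of Psmb8 and Psmd9 lie inside the longer gene spans of GENCODE, so these 2 stretches are inside the annotated genes there. Psmb5 is printed at greater length because it had the smallest p of the members between the CDDO-Me groups. The run covers chr14:54618023-54618245, on the minus strand, with the motif in capitals.
Psmb5 upstream: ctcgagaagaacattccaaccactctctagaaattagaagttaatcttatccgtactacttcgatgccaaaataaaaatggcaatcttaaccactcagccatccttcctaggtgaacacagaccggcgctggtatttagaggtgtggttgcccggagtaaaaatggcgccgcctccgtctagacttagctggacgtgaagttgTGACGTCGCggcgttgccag

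Levels between genes were compared by the authors' FPKM, which divides by gene length. Psmb1, a non-catalytic beta subunit, had the highest mean over the 16 libraries at 64.8 FPKM (51.9 to 82.7 in single libraries), and Psma8 the lowest at 0.368. The median of the members' means was 26.3 FPKM in the constitutive core, 8.01 in the immunoproteasome and 18.0 in the cap. Among the alpha subunits, which form the outer rings and the gate, Psma6 was highest at 42.1 FPKM. Among the constitutive beta subunits Psmb7 was lowest at 23.1 FPKM. Of the immunoproteasome genes, Psmb10 averaged 16.5, Psmb8 8.01 and Psmb9 3.22 FPKM.
Within the cap, the ATPases lay between Psmc2 at 12.6 and Psmc1 at 40.1 FPKM, and the non-ATPases between Psmd1 at 13.3 and Psmd2 at 44.9 FPKM, the last 2 being large scaffolds of the base. The 3 chaperones, which leave the finished particle, were lower: Psmd10 averaged 4.40, Psmd5 3.87 and Psmd9 3.76 FPKM. Together the members held 0.180% to 0.255% of the reads of a library.

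**Figure D1:**
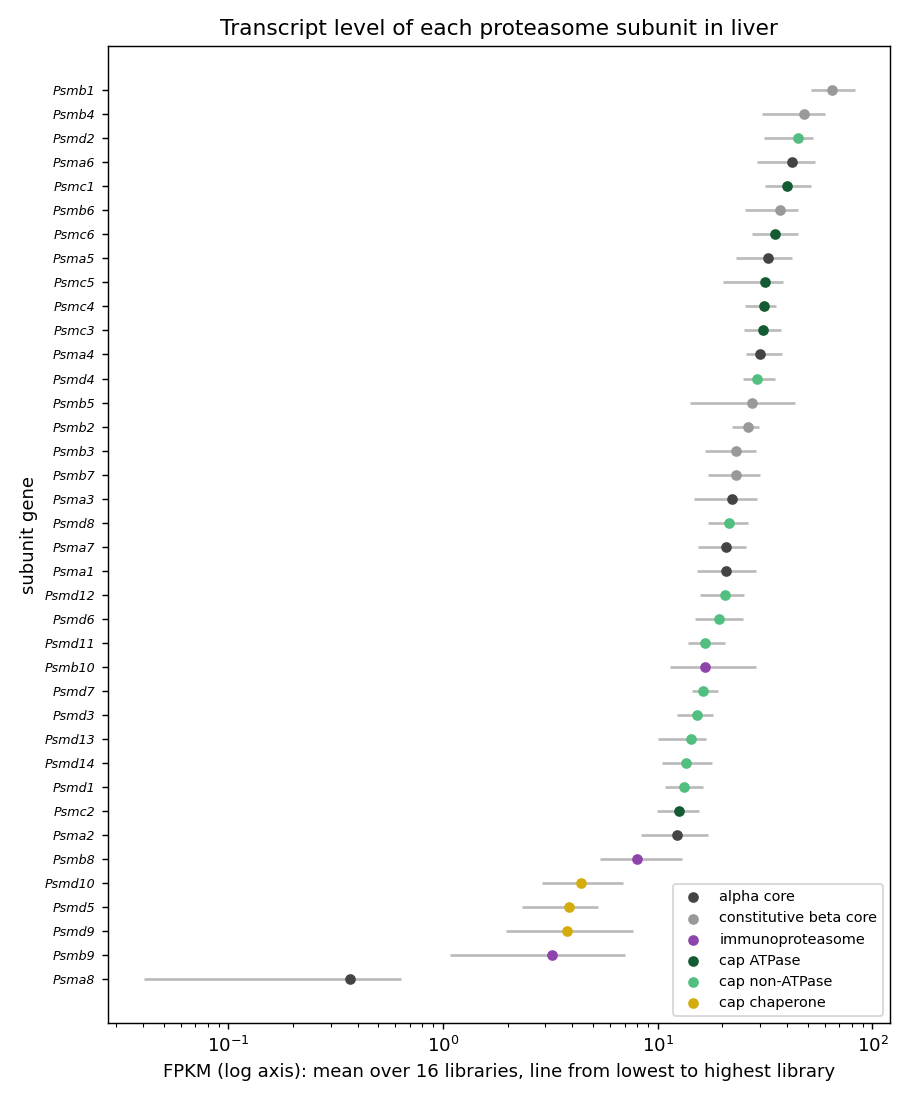
Mean deposited FPKM of the 38 genes over 16 libraries on a log axis, coloured by class, with a line spanning the lowest to the highest library. The mean for Psmb1 is 64.8 FPKM, the cap chaperones sit near 4 FPKM, and Psma8 stands alone at 0.368 FPKM.

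In CPM the members moved together from library to library, and the intron-rich libraries were the low ones. Of the 38 members, 28 (73.7%) had lower CPM in all 4 intron-rich libraries than in every one of the other 12, which held for 11.1% of the 16206 genes tested. No member was above all others there, against 12.4% of genes. By class the count was 12 of 15 in the core, 15 of 20 in the cap and 1 of 3 in the immunoproteasome. The 10 exceptions were Psma3, Psma8, Psmb2, Psmb8, Psmb9, Psmd3, Psmd5, Psmd7, Psmd9 and Psmd11. KO untreated 1 had the lowest CPM of all libraries for 25 members, and KO CDDO-Me 3 the highest for 17.

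The coefficient of variation of a member over all libraries had a median of 22.4%, against 11.7% over the 12 libraries left when the intron-rich ones were set aside. For the mean log2 CPM of a class, the pooled SD within groups was 0.53 for the immunoproteasome, 0.32 for the constitutive core and 0.26 for the cap. These means average 3, 15 and 20 genes, so the SDs are not on equal terms. By gene, the median coefficient of variation over all libraries was 41.3%, 24.0% and 21.4% in the same order. CPM here is scaled by edgeR's TMM factors, which ran from 1.17 to 1.41 in the intron-rich libraries and from 0.744 to 1.06 in the others. As a share of all counted reads, the members held 0.181% to 0.206% in the intron-rich libraries and 0.180% to 0.255% in the others. The 2 sets overlapped on that scale through WT CDDO-Me 4 at 0.180%, the other 11 libraries holding 0.213% to 0.255%. In the authors' FPKM the median of the cap genes overlapped, at 16.3 to 18.5 in the intron-rich libraries and 14.9 to 21.0 in the others. The core median was 22.75 to 23.7 against 23.8 to 29.8 FPKM, just without overlap. That of the immunoproteasome overlapped, at 5.39 to 7.90 against 6.11 to 12.9 FPKM. Whether intronic RNA sets the low values was not tested.

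**Figure D2:**
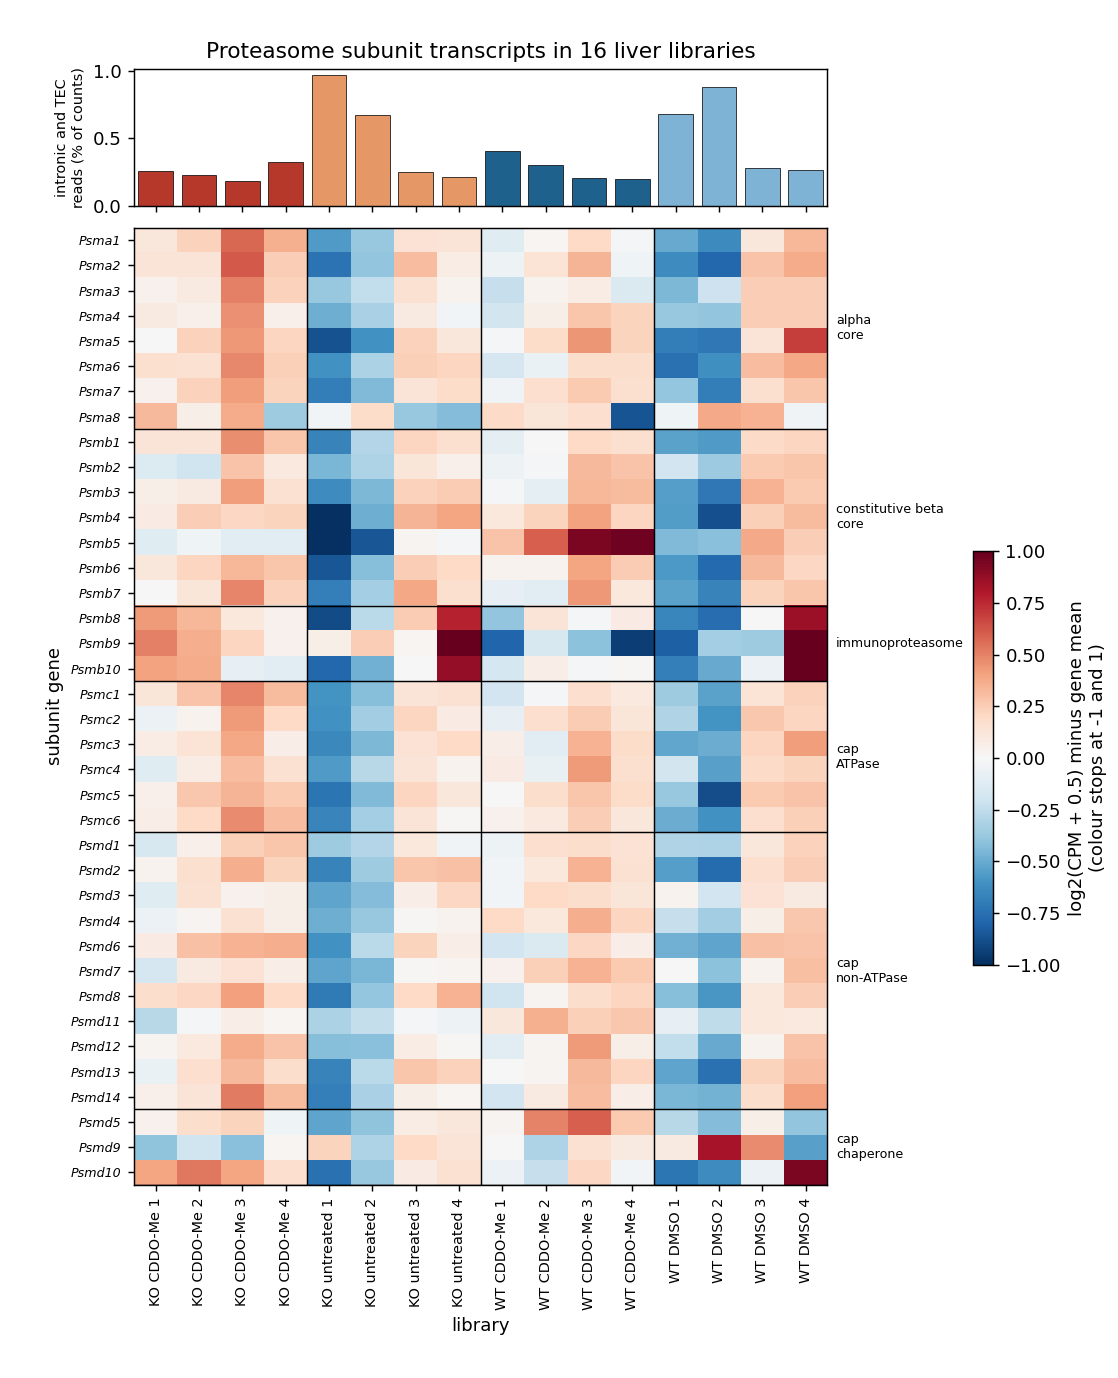
Colour gives log2(CPM + 0.5) minus the gene's mean over 16 libraries for each of 38 genes (rows, by class) in each library (columns, by group), and the bars on top give the percent of reads in intronic and TEC genes. The columns with the tall bars, KO untreated 1 and 2 and WT DMSO 1 and 2, are low for 28 of the genes, and Psmb8, Psmb9 and Psmb10 are highest in KO untreated 4 or WT DMSO 4.

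Each contrast was tested with edgeR's quasi-likelihood test on all 16206 genes that passed the count filter, all 38 members among them, and calls were made where the p adjusted by Benjamini-Hochberg was under 0.05. No member was called in any of the 5 contrasts. The share of all genes called was 0.728% in WT CDDO-Me against WT DMSO, 0.13% in KO CDDO-Me against KO untreated, 1.38% in KO untreated against WT DMSO, 3.3% in KO CDDO-Me against WT CDDO-Me, and 0.13% for the interaction, which is the response to CDDO-Me in WT minus that in KO livers. At an unadjusted p under 0.05 there were 3, 4, 0, 3 and 0 members in the same order, against 15.3%, 15.8%, 14.1%, 17.1% and 8.53% of genes. DESeq2 called 1 member, Psmd5, higher in WT CDDO-Me livers, where it called 2.8% of genes, and 0 members in the other 4 contrasts, where it called 1.75%, 3.5%, 5.81% and 1.08% of genes. Limma on log2(FPKM + 1) called 3 members in KO CDDO-Me against WT CDDO-Me, where it called 4.52% of genes. It called 0 members in the other 4 contrasts, with 0.521%, 0.247%, 0.827% and 0.274% of genes called. The contrasts share groups, so their values are given side by side and not as support for each other.

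The median log2 fold change of the members was 0.19 in WT CDDO-Me against WT DMSO livers, where 31 of 38 were positive and the median of all genes was −0.02. Without the intron-rich libraries that median was −0.16, with 5 of 38 positive and −0.02 for all genes, so the direction of the WT response turned with those libraries. In KO CDDO-Me against KO untreated livers the median was 0.32, with 36 positive and −0.04 for all genes. Without the intron-rich libraries it was 0.04, with 25 positive and 0.02 for all genes.

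Between KO untreated and WT DMSO livers, which hold 2 intron-rich libraries each, the median was −0.06 with 10 positive and 0.00 for all genes, and −0.15 with 8 positive and −0.02 for all genes without those libraries. On the FPKM scale the sign turned: limma on log2(FPKM + 1) gave a median of 0.11 with 33 positive, where the median of all genes was itself 0.10. Between KO CDDO-Me and WT CDDO-Me livers, which hold no intron-rich library, the median was 0.07 with 28 positive and −0.01 for all genes. Leaving those libraries out, which enter that contrast only through the filter, the scaling and the shared spread, it was 0.09 with 28 positive. The interaction had a median of −0.14 with 8 positive, and −0.22 with 6 positive without the intron-rich libraries. Relative to the core and cap subunits in place of all genes, the median of all genes itself shifted to −0.28 in the WT and −0.41 in the KO response to CDDO-Me.

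By class, the WT response to CDDO-Me had a median of 0.20 in the core with 13 of 15 positive, −0.20 in the immunoproteasome with 0 of 3, and 0.19 in the cap with 18 of 20. Without the intron-rich libraries these medians were −0.18, −0.74 and −0.10, with 1, 0 and 4 positive. The KO response had medians of 0.35, 0.12 and 0.28 for core, immunoproteasome and cap, and 0.08, −0.33 and 0.04 without those libraries. In both of these fits the core and cap medians had the same sign. When libraries were scaled to the summed counts of the core and cap members, the core and cap medians were 0.020 and −0.024 in the WT response. In the KO response they were 0.059 and −0.027. This scaling holds core and cap near 0 by construction, so these medians are no result about the members.

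**Figure D3:**
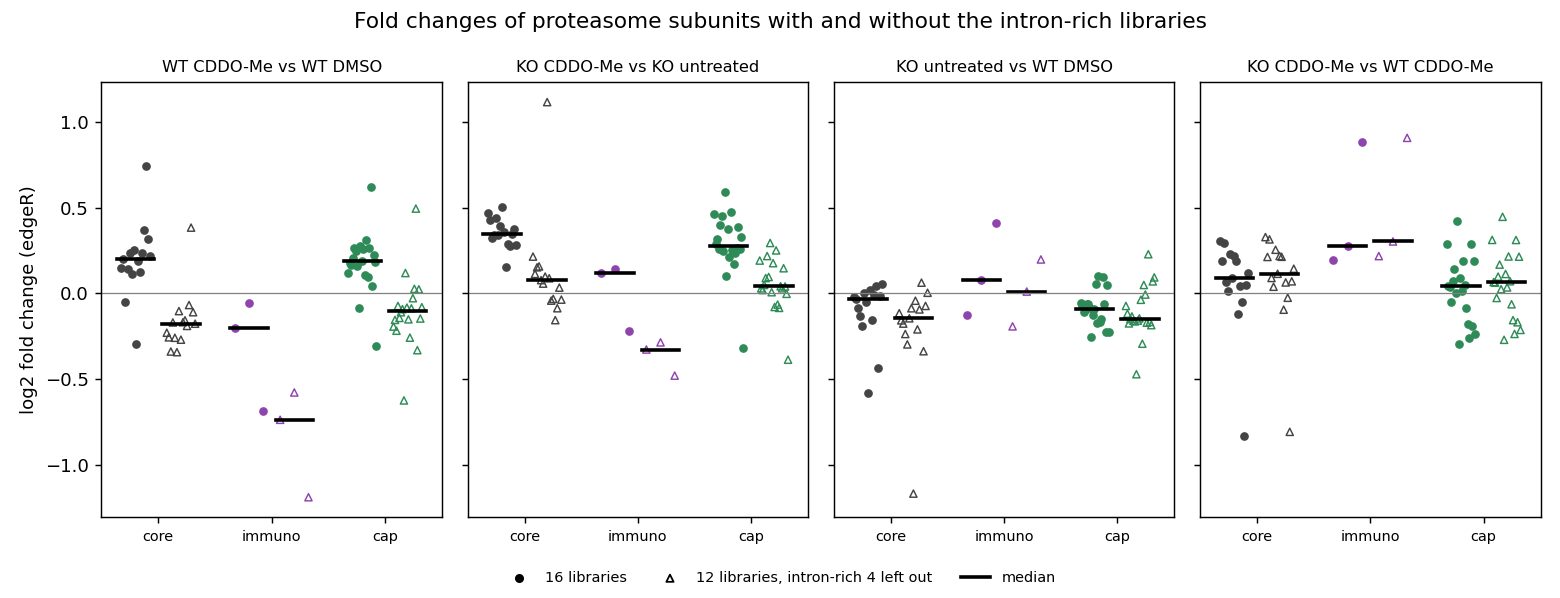
Each point is the edgeR log2 fold change of 1 gene, in 4 panels for the 4 contrasts, with the core, immunoproteasome and cap side by side and a bar at the median. Filled circles come from all 16 libraries and open triangles from the 12 left without the intron-rich ones. In the panel of WT CDDO-Me against WT DMSO the core median lies at 0.20 for circles and −0.18 for triangles, while in KO CDDO-Me against WT CDDO-Me circles and triangles nearly coincide.

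Among the constitutive catalytic subunits, Psmb5 was the one whose CDDO-Me groups did not overlap, the KO livers being lower. Psmb5 (GRCm38 14:54614119-54618022, minus strand) had 21.2, 22.4, 21.3 and 21.5 CPM in KO CDDO-Me livers, against 28.3, 35.3, 44.9 and 45.8 CPM in WT CDDO-Me livers. Every KO CDDO-Me library lay below every WT CDDO-Me library. The means were 21.6 ± 0.573 and 38.6 ± 8.33 CPM (SD, n = 4 each), and in the authors' FPKM the ranges were 22.7 to 25.1 and 34.4 to 43.7. The edgeR log2 fold change was −0.83 ± 0.28 (SE), a fold of 0.562, with a Benjamini-Hochberg adjusted p of 0.123, so Psmb5 was not called in this fit.

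When the intron-rich libraries were left out, the Psmb5 difference was −0.81 with an adjusted p of 0.00473 in edgeR, past the threshold, where 4.62% of all genes were called lower. Fitted on these 2 groups alone it was −0.81 (edgeR adjusted p = 0.00510, 7.09% of genes called lower). With the intronic share as a covariate it was −0.86 (edgeR adjusted p = 0.000129, 7.47% of genes). Also past the threshold with all libraries was −0.66 in limma on log2(FPKM + 1) (adjusted p = 0.0327, 1.56% of genes called lower). So was −0.85 when scaled to the summed core and cap members, Psmb5 among them (edgeR adjusted p = 0.00583, 2.82% of genes). DESeq2 gave −0.82 with an adjusted p of 0.0741. Leaving out single libraries gave −0.96 to −0.74, with edgeR adjusted p of 0.0522 to 0.302 and no call. Ribosomal RNA genes held 0.00108% to 0.00768% of reads in the KO CDDO-Me libraries, against 0.0105% in WT CDDO-Me 1 and 0.194% to 0.510% in WT CDDO-Me 2 to 4. WT CDDO-Me 1 had the lowest Psmb5 of that group, at 28.3 CPM, and the KO CDDO-Me libraries had 21.2 to 22.4 CPM. The part of the ribosomal share in the difference was not tested.

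In the controls Psmb5 had 8.74, 12.55, 23.6 and 22.9 CPM in KO untreated livers and 16.9, 17.1, 30.2 and 27.6 CPM in WT DMSO livers, the first 2 of each being intron-rich. The groups overlapped with all libraries. The KO untreated difference from WT DMSO came to −0.44 ± 0.28 (edgeR adjusted p = 0.551), and to −0.34 (adjusted p = 0.404) without the intron-rich libraries. With the intronic share as a covariate it was −0.51 and past the threshold (edgeR adjusted p = 0.0177), where 3.05% of genes were called lower. The WT response to CDDO-Me came to 0.74 ± 0.28 (edgeR adjusted p = 0.241), and to 0.38 (adjusted p = 0.334) without the intron-rich libraries. The KO response came to 0.35 ± 0.28 (edgeR adjusted p = 0.504), and to −0.09 (adjusted p = 0.911) without them. The interaction itself was 0.39 ± 0.39 (edgeR adjusted p = 0.899), so the 2 responses were not shown to differ.

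Psmb5 was also set against the mean of the other core and cap subunits of its own library. On this log2 scale it lay at −1.54 to −1.23 in KO CDDO-Me, −1.86 to −1.20 in KO untreated, −0.76 to −0.23 in WT CDDO-Me and −1.14 to −0.90 in WT DMSO livers. All 4 WT CDDO-Me libraries were above all 4 WT DMSO libraries, and all KO untreated libraries were below all WT DMSO libraries. Without overlap on this scale, 3 members were higher in WT CDDO-Me livers against WT DMSO (Psmb4, Psmb5 and Psmd2, with 2.33% of genes) and 0 lower (2.72%). The gap was narrow for Psmb4 (at least 1.015 against at most 1.011) and Psmd2 (at least 1.936 against at most 1.93). In KO untreated livers against WT DMSO, 1 was lower (Psmb5, with 1.65% of genes) and 0 higher (3.7%). The KO response had 3 members higher (Psma1, Psmc1 and Psmc6, with 1.49% of genes) and 1 lower (Psmd9, with 11.1%). Of the CDDO-Me groups, the KO livers had 6 members higher (Psma1, Psma3, Psmb9, Psmc1, Psmd6 and Psmd10, with 6.78% of genes) and 5 lower (Psmb5, Psmd4, Psmd5, Psmd7 and Psmd11, with 9.73%). This scale was chosen after the values were seen. It subtracts the mean of the members themselves, so the counts of members and the shares of genes are not on equal terms.

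**Figure D4:**
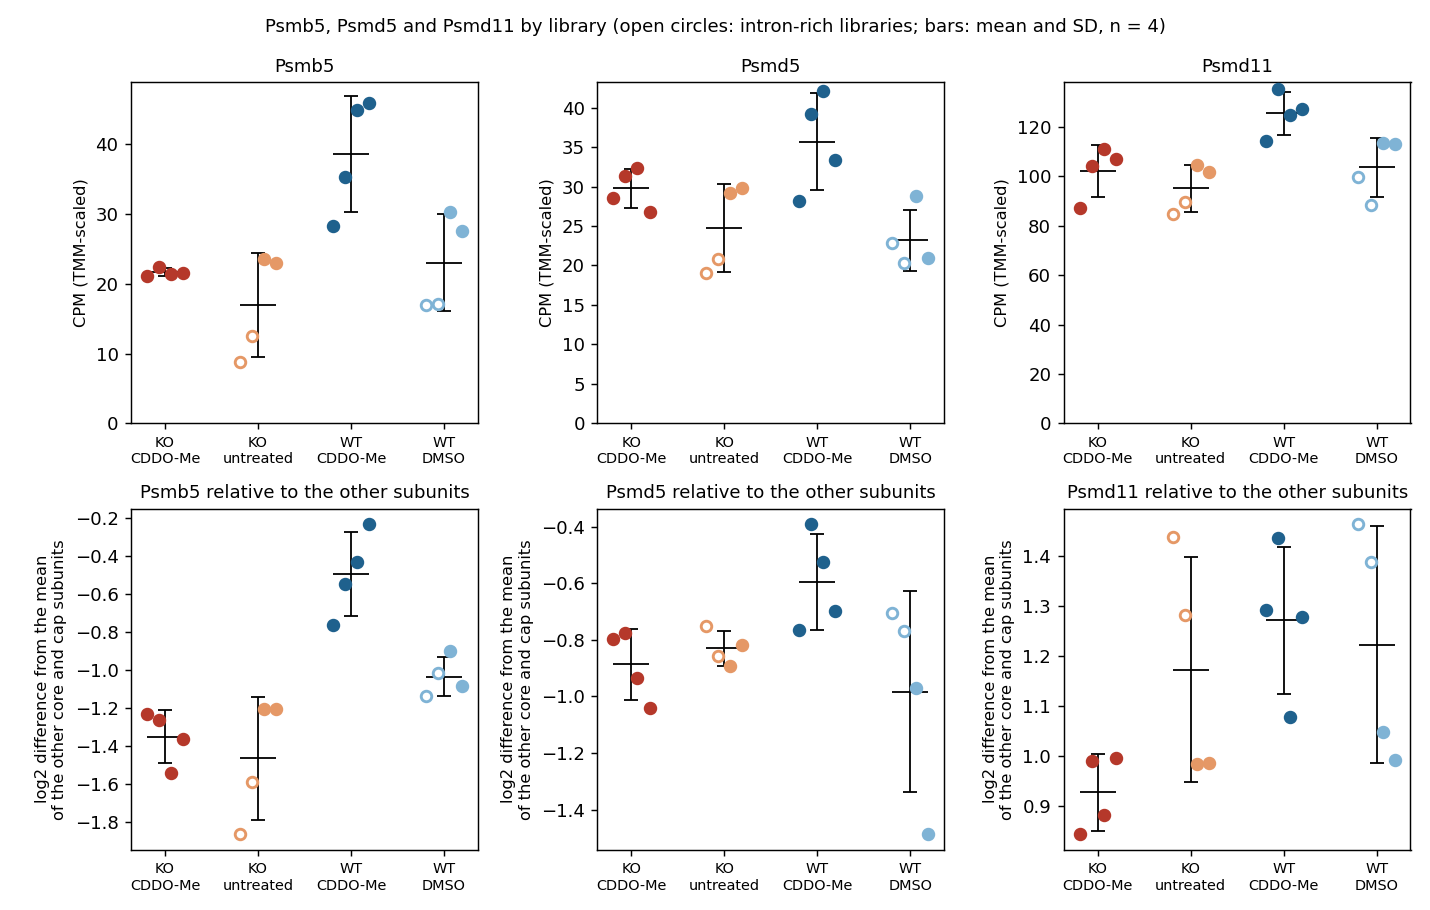
Psmb5, Psmd5 and Psmd11 in 16 libraries by group, as CPM (top) and as the log2 difference from the mean of the other core and cap subunits of the library (bottom), with group mean and SD (n = 4) and open circles for intron-rich libraries. Psmb5 in WT CDDO-Me livers, at 28.3 to 45.8 CPM, lies above all KO CDDO-Me libraries, and on the lower scale above the libraries of all other groups.

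The other catalytic subunits of the core did not show the Psmb5 pattern. Psmb6 had 73.9, 79.4, 86.2 and 83.2 CPM in KO CDDO-Me, 37.5, 50.9, 81.2 and 78.7 in KO untreated, 70.0, 70.2, 90.3 and 82.0 in WT CDDO-Me, and 45.9, 39.8, 85.9 and 79.3 in WT DMSO livers. Psmb7 had 78.2, 84.8, 110 and 91.6 CPM in KO CDDO-Me, 48.3, 61.4, 102 and 87.2 in KO untreated, 73.8, 72.1, 105 and 83.9 in WT CDDO-Me, and 53.8, 48.9, 91.1 and 94.5 in WT DMSO livers. For both genes the low values were those of the intron-rich libraries, and the groups overlapped in every contrast. Between KO CDDO-Me and WT CDDO-Me livers the log2 fold changes were 0.05 ± 0.26 for Psmb6 (edgeR adjusted p = 0.960) and 0.12 ± 0.25 for Psmb7 (edgeR adjusted p = 0.876).

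Psma3, an alpha-ring subunit, had the smallest p of the members in the interaction. It had 88.2, 90.95, 122 and 100.3 CPM in KO CDDO-Me and 65.7, 72.0, 95.4 and 87.6 CPM in KO untreated livers, against 73.0, 87.4, 89.9 and 77.5 CPM in WT CDDO-Me and 62.4, 74.1, 102 and 102 CPM in WT DMSO livers. The groups overlapped in both responses. The response in log2 was −0.05 in WT livers and 0.32 in KO livers, and the interaction was −0.37 ± 0.25 (edgeR adjusted p = 0.782). Psma1, another alpha subunit, had a KO response of 0.47 that also missed the threshold (edgeR adjusted p = 0.306).

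None of the immunoproteasome genes was called by edgeR on all libraries. The mean of these 3 genes varied more between libraries of 1 group than the means of core and cap. Psmb8 (GRCm38 17:34197721-34201454, plus strand), the inducible counterpart of Psmb5, had 28.6, 26.8, 22.9 and 21.8 CPM in KO CDDO-Me, 11.2, 17.6, 25.4 and 36.4 in KO untreated, 16.02, 23.2, 21.1 and 22.5 in WT CDDO-Me, and 13.3, 12.3, 21.2 and 38.8 in WT DMSO livers. Replicate 4 was the highest of KO untreated and of WT DMSO, and all groups overlapped. In edgeR, Psmb8 differed by 0.28 ± 0.35 in log2 between KO CDDO-Me and WT CDDO-Me livers (adjusted p = 0.767). The KO response was 0.14 ± 0.35 (adjusted p = 0.834 in edgeR) and the WT response −0.06 ± 0.35 (adjusted p = 0.942).

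Psmb9 (GRCm38 17:34181987-34187764, minus strand), the counterpart of Psmb6, had 15.3, 13.9, 12.5 and 11.0 CPM in KO CDDO-Me, 11.2, 12.8, 10.9 and 26.4 in KO untreated, 5.94, 9.53, 7.90 and 5.32 in WT CDDO-Me, and 5.87, 8.33, 8.23 and 23.4 in WT DMSO livers. Every KO CDDO-Me library lay above every WT CDDO-Me library. So did every KO untreated library, a pair of groups that was not among the contrasts. The remaining pairs of groups overlapped. The log2 fold change between the CDDO-Me groups was 0.88 ± 0.38, a fold of 1.84, with an edgeR adjusted p of 0.244. With the intron-rich libraries left out it was 0.91 (edgeR adjusted p = 0.108), and 0.90 and past the threshold on these 2 groups alone (edgeR adjusted p = 0.0106), where 6.45% of genes were called higher. Psmb9 overlaps Tap1 on the opposite strand in GENCODE, and the strand setting of the counting is not given in the sources used here, so reads of the pair may not be separable. Tap1 had 26.55 to 44.4 CPM in KO CDDO-Me and 15.5 to 25.0 in WT CDDO-Me livers, also without overlap. It had 28.2 to 79.8 CPM in KO untreated and 18.1 to 99.6 in WT DMSO livers.

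Psmb10 (GRCm38 8:105935735-105938444, minus strand), the counterpart of Psmb7, had 36.1, 35.1, 25.6 and 25.1 CPM in KO CDDO-Me, 15.5, 19.3, 27.2 and 50.3 in KO untreated, 23.9, 28.4, 27.0 and 27.4 in WT CDDO-Me, and 16.6, 19.0, 26.0 and 60.6 in WT DMSO livers. The 2 highest values were again replicate 4 of KO untreated and of WT DMSO, and all groups overlapped. Its log2 fold change was −0.20 ± 0.38 in the WT response (edgeR adjusted p = 0.799) and 0.19 ± 0.38 between the CDDO-Me groups (adjusted p = 0.868).

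The immunoproteasome values of the WT response moved with WT DMSO 4. Without it Psmb8 was 0.41, Psmb10 0.38 and Psmb9 −0.06, against −0.06, −0.20 and −0.69 with all libraries. The median of the 3 log2 fold changes was −0.20 with all libraries, 0.38 without WT DMSO 4, and between −0.41 and 0.38 when single libraries were left out. It was −0.74 without the intron-rich libraries, when WT DMSO 3 and 4 are the controls left. In the interaction it was −0.32 with all libraries and 0.26 without WT DMSO 4. The medians between KO CDDO-Me and WT CDDO-Me livers were 0.28 with all libraries and 0.30 without the intron-rich ones, with all 3 genes positive in both.

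Ratios of each inducible subunit to its constitutive counterpart were taken within a library from FPKM, which removes the library scaling. Psmb8 over Psmb5 was 0.323 to 0.430 in KO CDDO-Me, 0.343 to 0.506 in KO untreated, 0.150 to 0.210 in WT CDDO-Me and 0.223 to 0.449 in WT DMSO livers. The 4 WT CDDO-Me libraries were below the 12 others. In FPKM Psmb5 alone was higher there, at 34.4 to 43.7 against 14.1 to 30.5 in the other groups. Psmb8 alone overlapped, at 6.11 to 8.26 against 5.39 to 12.9, so the ratio is no separate result for Psmb8. In log2 the means were −1.45 ± 0.18, −1.25 ± 0.24, −2.54 ± 0.22 and −1.86 ± 0.48 in the same order (SD, n = 4 each), and as a ratio of 2 members it was given no test.
Psmb9 over Psmb6 was 0.0679 to 0.106, 0.0684 to 0.172, 0.0332 to 0.0694 and 0.0490 to 0.151 in the same order of groups. Psmb10 over Psmb7 was 0.469 to 0.925, 0.535 to 1.16, 0.513 to 0.791 and 0.572 to 1.29. For both of these ratios the WT CDDO-Me and WT DMSO groups overlapped, as did the KO groups and the 2 CDDO-Me groups.

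Genes that interferon induces, other than the members, were counted as a list of 15, among them the peptide transporter Tap1 and the GTPase Gbp2. Their summed CPM was 1103 to 1289 in KO CDDO-Me, 782 to 1467 in KO untreated, 987 to 1376 in WT CDDO-Me and 750 to 2510 in WT DMSO livers, and none of the 15 was at 0 in any library. The highest of KO untreated was replicate 4 at 1467 CPM and the highest of WT DMSO was replicate 4 at 2510 CPM, the libraries that were also the highest of their groups in Psmb8, Psmb9 and Psmb10. With all libraries 0 of the 15 were called in any contrast by edgeR, with 7 at an unadjusted p under 0.05 in the WT response. Without the intron-rich libraries Gbp2 (log2 fold change −4.10, edgeR adjusted p = 0.048) and Ifit1 (−5.32, adjusted p = 0.0228) were called lower in WT CDDO-Me than in WT DMSO livers. In that fit 0.256% of genes were called lower, and 1 library carried both Gbp2 and Ifit1. Ifit1 had 4.09 to 5.88 CPM in WT CDDO-Me livers, against 5.96 CPM in WT DMSO 3 and 404.9 CPM in WT DMSO 4. Gbp2 had 3.40 to 5.08 CPM in WT CDDO-Me livers, against 3.75 CPM in WT DMSO 3 and 134 CPM in WT DMSO 4.

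Markers of other cell types were summed in each library. The summed CPM of neutrophil and monocyte markers was 40.4 in WT DMSO 4, against 4.42 to 17.6 in the other libraries, with 6.52 in KO untreated 4. The sum of 4 cholangiocyte markers was 36.55 CPM in WT DMSO 4, against 4.02 to 16.8 in the other libraries. The sum of 8 Kupffer cell and macrophage markers was 313 to 478 in KO CDDO-Me, 229 to 394 in KO untreated, 403 to 557 in WT CDDO-Me and 177 to 247 in WT DMSO livers, with none at 0. WT DMSO 4 was the lowest library there. In the WT response 4 of the 8 were called higher (edgeR, adjusted p under 0.05), with 0.555% of genes. All 8 were also higher in KO untreated than in WT DMSO livers, 1 of them called, with 0.407% of genes. The sum of 9 lymphocyte markers was 23.6 to 32.5, 25.9 to 39.7, 17.2 to 26.7 and 14.9 to 34.8, with 23.1 in WT DMSO 4. That of 6 endothelial markers was 224 CPM in WT DMSO 4, against 243 to 383 CPM in the other libraries. Stellate and fibroblast markers (6 genes) summed to 615 CPM in KO untreated 4, against 205 to 539 CPM in the other libraries. Erythroid markers (3 genes) summed to 299 CPM in WT DMSO 4 and 464 CPM in KO untreated 4, within 142 to 782 CPM over all libraries. The part of these cells in the immunoproteasome values was not tested. In bulk tissue, fewer cells of a type and less RNA per cell cannot be told apart.

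**Figure D5:**
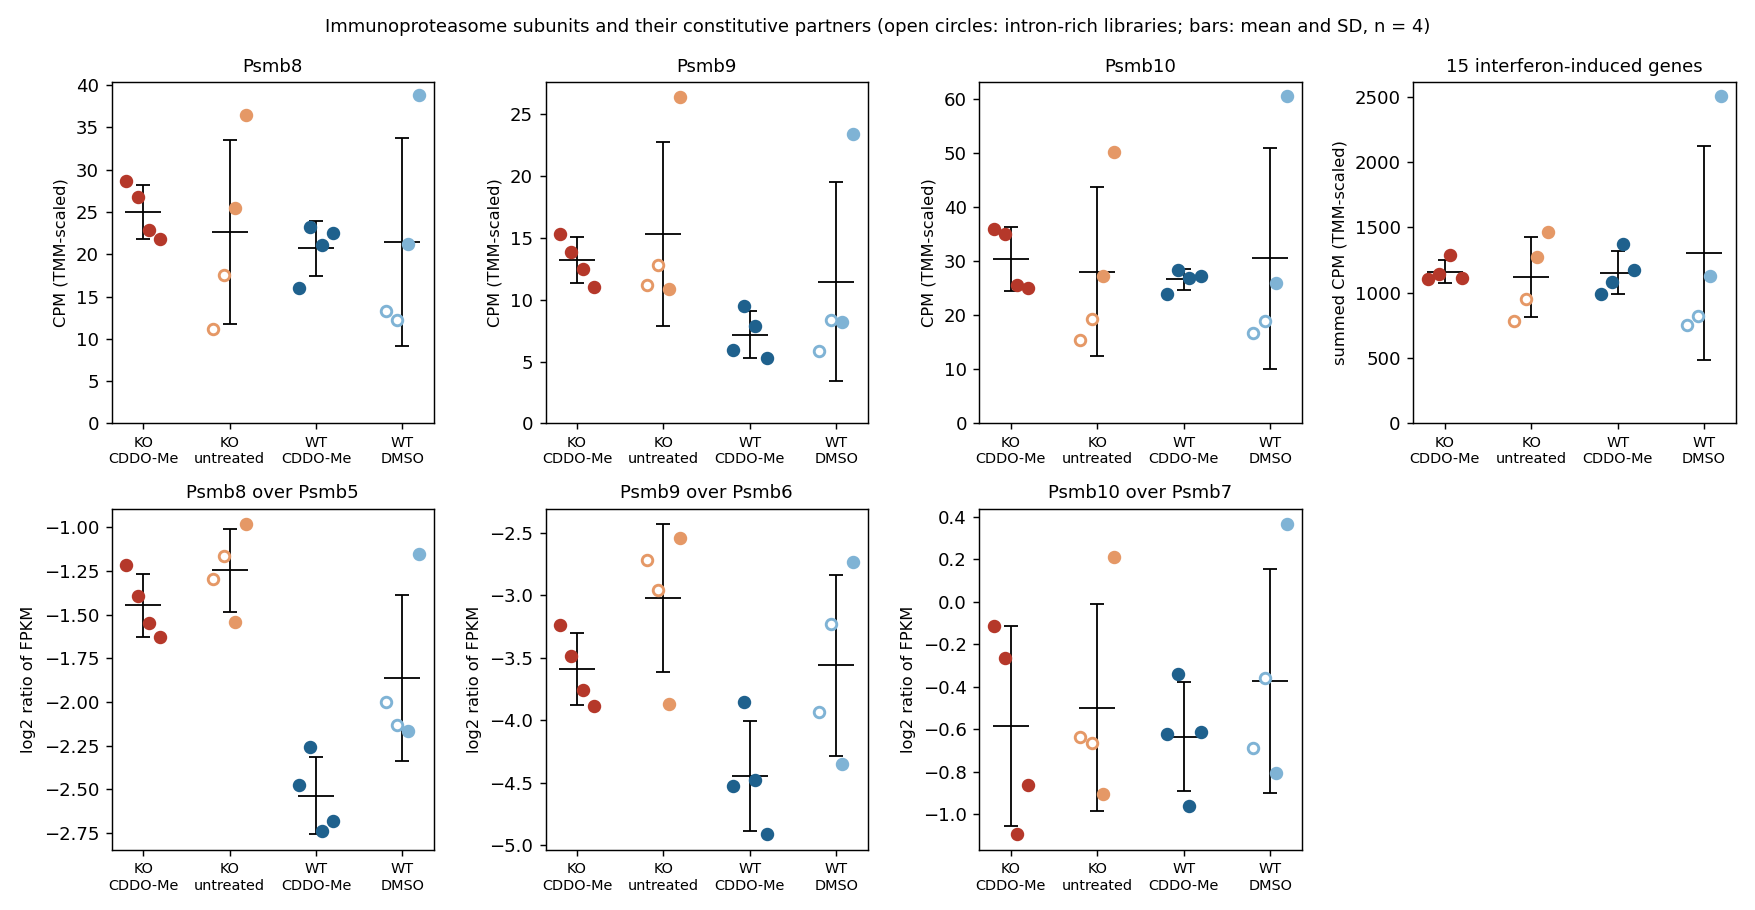
Top, CPM of Psmb8, Psmb9 and Psmb10 and the summed CPM of 15 interferon-induced genes by library and group, with open circles for intron-rich libraries. Bottom, log2 FPKM ratios of Psmb8 over Psmb5, Psmb9 over Psmb6 and Psmb10 over Psmb7, with group mean and SD (n = 4). WT DMSO 4 is high in every top panel, and the WT CDDO-Me libraries, at ratios of 0.150 to 0.210, are the lowest for Psmb8 over Psmb5.

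In the cap, the member with the smallest p in the WT response was Psmd5, a chaperone that holds the base ATPases during assembly. Psmd5 had 28.2, 39.2, 42.0 and 33.3 CPM in WT CDDO-Me livers, against 22.8, 20.3, 28.8 and 20.9 CPM in WT DMSO livers. The WT CDDO-Me libraries were higher except that WT CDDO-Me 1 lay just below WT DMSO 3. In edgeR the log2 difference was 0.62 ± 0.18 (adjusted p = 0.127), and 0.50 with an adjusted p of 0.209 without the intron-rich libraries. DESeq2, which found 0.61 with an adjusted p of 0.0486, called it. In KO CDDO-Me livers Psmd5 had 28.6, 31.4, 32.3 and 26.8 CPM, against 19.0, 20.8, 29.2 and 29.9 CPM in KO untreated livers.

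Psmd11, a scaffold of the lid that was picked out after the values were seen, was the only member without overlap in the WT response. It had 114, 136, 125 and 127 CPM in WT CDDO-Me livers, against 99.8, 88.6, 114 and 113 CPM in WT DMSO livers, the lowest of the first group (114.4) lying above the highest of the second (113.5). In CPM, 4.36% of genes were higher without overlap in that contrast, and 2.84% were lower, with 0 members among them. KO CDDO-Me livers had 87.2, 104, 111 and 107 CPM, all below WT CDDO-Me, and KO untreated livers 84.8, 89.5, 105 and 102 CPM. The log2 fold change came to 0.28 ± 0.13 in the WT response (edgeR adjusted p = 0.326), and to 0.12 (adjusted p = 0.716) without the intron-rich libraries. Between KO CDDO-Me and WT CDDO-Me livers it was −0.29 ± 0.13 (edgeR adjusted p = 0.251), and −0.31 with a call when the intronic share was a covariate (edgeR adjusted p = 0.0229, 7.47% of genes called lower).

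In CPM, then, the KO livers of the CDDO-Me groups were lower without overlap for 2 members (Psmb5 and Psmd11, with 9.82% of genes) and higher for 1 (Psmb9, with 9.25%). In the KO response 1 member was higher without overlap (Psmd10, against 5.98% of genes) and 0 lower (4.5%). For KO untreated against WT DMSO livers 0 were higher (2.87%) and 0 lower (3.04%). With the intron-rich libraries left out that last contrast sets 2 libraries against 2, and 3 members were higher (22.8% of genes) and 17 lower (21.3%). In the WT response, with 4 against 2, Psmd11 was higher (9.55% of genes) and Psma3, Psma6 and Psmd6 lower (7.8%). In the KO response Psma8 and Psmd10 were higher (11.2%) and Psmb4, Psmb5 and Psmd9 lower (12.5%).

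The cap ATPases Psmc1 and Psmc6 had the smallest p in the KO response. Psmc1 had 83.7, 93.8, 108 and 95.8 CPM in KO CDDO-Me livers, against 50.5, 57, 83.8 and 85.3 CPM in KO untreated livers. Psmc6 had 57.1, 62.9, 76.0 and 67.8 CPM in KO CDDO-Me livers, against 34.4, 43.1, 59.8 and 55.1 CPM in KO untreated livers. For both, the 2 intron-rich KO untreated libraries were far below the rest, and the higher of the 2 others lay within the range of KO CDDO-Me. In edgeR the Psmc1 response was 0.46 ± 0.20 in log2 (adjusted p = 0.287), and 0.19 with an adjusted p of 0.701 without the intron-rich libraries. That of Psmc6 came to 0.45 ± 0.20 (edgeR adjusted p = 0.300), and to 0.22 (adjusted p = 0.628) without them. The lid deubiquitinase Psmd14, at 0.47, likewise missed the threshold (edgeR adjusted p = 0.303).

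In wild-type livers Psmc1 had 67.2, 76.4, 86.3 and 82.2 CPM after CDDO-Me, against 60.0, 52.7, 84.7 and 90.04 CPM after DMSO. Between KO CDDO-Me and WT CDDO-Me livers Psmc1 differed by 0.29 ± 0.20 (edgeR adjusted p = 0.511). It was past the threshold, at 0.26, with the intronic share as a covariate (edgeR adjusted p = 0.0384, 5.91% of genes called higher). It was also called, at 0.41, by limma on log2(FPKM + 1) (adjusted p = 0.0241), which called the non-ATPase Psmd6 too, at 0.40 (adjusted p = 0.0471), and 2.96% of genes higher. Psmc6 had 56.3, 58.6, 64.7 and 59.0 CPM in WT CDDO-Me livers, against 38.5, 35.8, 61.5 and 64.7 CPM in WT DMSO livers.

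Psmd7, a lid subunit that pairs with the deubiquitinase Psmd14, followed Psmb5 in the order of p between KO untreated and WT DMSO livers. It had 25.2, 26.5, 36.9 and 37.3 CPM in KO untreated livers, against 36.7, 27.5, 37.6 and 45.2 CPM in WT DMSO livers. The groups overlapped. Psmd7 differed by −0.22 ± 0.17 in log2 (edgeR adjusted p = 0.632). In the CDDO-Me groups it had 32.6 to 40.6 CPM in KO and 37.9 to 46.9 CPM in WT livers. Psmd10, the chaperone also known as gankyrin, had 8.42, 9.29, 8.41 and 7.15 CPM in KO CDDO-Me livers, against 3.56, 4.73, 6.70 and 7.03 CPM in KO untreated livers. Those groups did not overlap, the narrowest gap being 7.15 against 7.03 CPM. It had 6.01, 5.28, 7.35 and 6.15 CPM in WT CDDO-Me livers, against 3.62, 3.89, 6.02 and 12.54 CPM in WT DMSO livers, where replicate 4 stood apart. Its KO response was 0.59 ± 0.32 (edgeR adjusted p = 0.359), and its interaction was −0.68 ± 0.46 (edgeR adjusted p = 0.790).

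Other genes of the pathway were counted from a list of 35 activators, assembly chaperones, cap partners, regulators, ubiquitin genes and substrate shuttles, of which 34 were tested. With all libraries 1 was called in all 5 contrasts together: Nfe2l2, the gene for NRF2, fell in KO CDDO-Me against WT CDDO-Me livers (log2 fold change −1.08 ± 0.26, edgeR adjusted p = 0.0283). Of the 34, 28 were positive in the WT response (median 0.20) and 31 in the KO response (median 0.21), where the members had medians of 0.19 and 0.32. Set apart from the intron-rich libraries, those medians were −0.10 and 0.02. Ubqln2 and Sqstm1, which carry ubiquitin-tagged proteins to the proteasome or to autophagy, had log2 fold changes of −0.85 (edgeR adjusted p = 0.0861) and −0.68 (adjusted p = 0.219) between KO CDDO-Me and WT CDDO-Me livers. In the 12 other libraries both were called lower, at −0.82 (edgeR adjusted p = 0.0091) and −0.66 (adjusted p = 0.0158), and the core assembly chaperone Psmg1 was called higher at 0.48 (adjusted p = 0.0226). In that fit 3 of the 34 were called lower, Nfe2l2 among them, and 1 higher, with 4.62% of all genes called lower and 4.42% higher.

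Nqo1, the reporter of NRF2 activity, was called in the WT response (log2 fold change 3.33, by edgeR) and between KO CDDO-Me and WT CDDO-Me livers (−4.89), where Psmb5 had −0.83. Nfe2l2 itself had 51.7 and 35.5 CPM in the intron-rich KO untreated 1 and 2, against 19.9 and 21.3 CPM in KO untreated 3 and 4. As the deleted part is not given, these reads do not check the genotype.

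Outside the members, the genes whose log2 CPM followed the mean standardised level of the 38 members most closely over the 16 libraries were Mrps7, Eny2 and Ywhab, with Pearson r of 0.986, 0.983 and 0.982. Those that followed Psmb8 most closely were Chmp2b, H2-D1 and H2-K1, with r of 0.948, 0.945 and 0.943. The libraries share the intronic and scaling differences given above, so these values describe likeness in these 16 libraries.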

How the data were processed

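Of 33730 genes in the deposited table, the whole-number read counts per gene were used for all main tests and the FPKM values, made by the authors per the file headers, for levels between genes, ratios and alternatives. The submitters' processing notes list GRCm38.p5 as the build and, as tools without role or order, HTSeq 0.6.1p1, TopHat2 2.1.0, cutadapt 1.2.1, CASAVA 1.8.2 and DESeq2. Of the counting, its strand setting, filters and annotation release were not given in the sources used here. Libraries were depleted of ribosomal RNA, directional and paired-end, per the labels' protocols.

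Libraries were grouped by their titles. Counts were fitted with edgeR 4.0.16 in R 4.3.3 (TMM scaling, filterByExpr by group, quasi-likelihood test, 4 groups, 16 libraries, 12 residual degrees of freedom). P-values were adjusted by Benjamini-Hochberg over 16206 genes and called under 0.05. DESeq2 1.42.0 and limma 3.58.1 (mean FPKM at least 0.1, pseudocount 1 or 0.1) served as alternatives. The fit was tested on simulated data. The members and lists were chosen with earlier results of these data known. Scaling to the summed counts of the core and cap members was added after the data were seen. Values for every library are given for the 6 catalytic subunits and, in each contrast, the 2 members with the smallest p. The exception is Psmd7, whose CDDO-Me groups are given as ranges.

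Positions came from GENCODE M21 (GRCm38), which matched 33586 gene IDs and left 144. Of the members, 19 overlap another annotated gene, and 4 annotated pseudogenes carry a member's name, so reads of such pairs may be shared. Apart from the group size in the series design, nothing states that each library is a separate animal, so p-values measure the spread between libraries. Same-numbered libraries of KO untreated and WT DMSO deviated together over all genes (r of 0.371 to 0.483 in 4 of 4 pairs). The labels give no pairing. Numbers 1 and 2 are the intron-rich libraries in both groups, so these r cannot tell a pairing from that shared split. In the other compared groups at most 2 of 4 pairs had r over 0.1. The tests carry no replicate block, which is among the alternatives.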

Additional observations from a re-analysis of the deposited data

Results flagged for a closer look

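Of 64 sets of 4 libraries (a gene or ratio within a group) examined for a library far from the other 3, 3 held one, and chance gives about 1 in 20. Psmb9 in KO untreated livers reached 26.4 CPM in replicate 4, against 12.8 CPM in the nearest library, a gap of 0.876 of the group's range. Psmb9 in WT DMSO livers reached 23.4 CPM in replicate 4, against 8.33 CPM in the nearest library, a gap of 0.860 of the range. The log2 ratio of Psmb8 over Psmb5 in WT DMSO livers was −1.16 in its highest library, against −2.0 in the nearest, a gap of 0.836 of the range.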

How the results depend on the processing

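With single libraries left out, edgeR called 0 members in all contrasts. The all-member medians then ran from 0.06 to 0.34 in the WT and 0.17 to 0.45 in the KO response, −0.19 to 0.09 for KO untreated against WT DMSO, 0.02 to 0.13 between the CDDO-Me groups and −0.29 to 0.02 in the interaction. The immunoproteasome median ran from −0.41 to 0.38 in the WT response and −0.76 to 0.26 in the interaction, the upper end in both coming without WT DMSO 4. Signs turned for Psmb8 (WT response −0.25 to 0.41, KO response −0.088 to 0.47, KO untreated against WT DMSO, the controls, −0.25 to 0.54, interaction −0.53 to 0.26), Psmb9 (KO response −0.35 to 0.19, interaction −0.87 to 0.15) and Psmb10 (WT response −0.41 to 0.38, KO response −0.088 to 0.56, controls −0.57 to 0.45, interaction −0.76 to 0.26).

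Without the intron-rich libraries the WT medians were −0.16 (all), −0.18 (core), −0.74 (immunoproteasome) and −0.10 (cap), and the KO response was −0.29 for Psmb8, −0.33 for Psmb10 and −0.086 for Psmb5. With the intronic share as a covariate the KO median was 0.025, with −0.30 for Psmb8, −0.31 for Psmb10 and −0.0079 for Psmb5. Scaled to the summed core and cap members, an alternative chosen after seeing the data, the KO response was −0.089 for Psmb8 and −0.11 for Psmb10. The KO medians there, 0.016 (all) and −0.027 (cap), lie near 0 by construction. Leaving out the pair WT DMSO 4 and WT CDDO-Me 1, the odd libraries in ribosomal RNA, the WT response was 0.52 for Psmb8, 0.030 for Psmb9 and 0.43 for Psmb10 (median 0.43), Psmb10 was 0.45 between the controls, and the interaction was 0.37, 0.25 and 0.31 (median 0.31). On FPKM in limma, Psmb10 between the controls was 0.10 (pseudocount 1, with or without a filter) and 0.11 (pseudocount 0.1).

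The number of members called was above 0 as follows. DESeq2 called 1 higher in the WT response (1.52% of genes), and the covariate 1 lower between the controls (3.05%). Between the CDDO-Me groups, limma called 2 higher with pseudocount 1 (2.96%) and 0.1 (3.12%) and 1 without a filter (1.48%), and the 2 groups alone (6.45%) and the covariate (5.91%) called 1 higher each. Lower there were 1 by limma with pseudocount 1 (1.56%) and 0.1 (1.6%), 1 on the 2 groups alone (7.09%), 1 without the intron-rich libraries (4.62%), 2 with the covariate (7.47%), and 1 scaled to the members (2.82%). With the replicate number as a block, 1 was called lower between the CDDO-Me groups (Psmb5, −0.78, edgeR adjusted p = 0.0366, 3.34% of genes), 0 otherwise, and Psmb8 was 0.061 in the WT response. Same-numbered libraries correlated at −0.454 to 0.483 over 24 pairs, 12 of them over 0.1. All 4 pairs of KO untreated and WT DMSO were over it (0.371 to 0.483), where the block changed no call, and 7 of 16 libraries correlated best with their own number. The cause of each change was not tested. Depth limits Psma8, which had 1 to 77 reads a library.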
